A study of Homo sapiens with 16 samples.

Results

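The 9 secretory and surface genes described here are the mucins MUC1, MUC5AC and MUC5B, the transcription factors SPDEF and FOXA2, the tetraspanin-like membrane proteins TM4SF1, TM4SF4 and TM4SF20, and the enzyme DDC. They were taken by name from 39576 named genes, of which 15285 were tested, and all 9 members were among those tested. SPDEF, MUC5AC, TM4SF4, TM4SF20 and DDC were chosen by their low values at 48 h, so their 48 h values are given as a description with no test. MUC1, MUC5B, FOXA2 and TM4SF1 were not chosen by a value and were tested at both times. The choice had no cut-off value.

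The cells were A549, an established human lung adenocarcinoma line, engineered to overexpress a CD63-Nluc fusion protein in every group, the controls included. CD63 is a tetraspanin of late endosomes and exosomes. The treatments were 5G6, 6D7, 7F8 and the control DMSO, each given for either 4 h or 48 h. That makes 8 groups of 2 biological replicates, from which polyA RNA was sequenced. The labels print 4 µM for all groups, DMSO included, and 5G6, 6D7 and 7F8 are code names. The labels do not say whether the line is a single clone or whether the replicates were separate cultures, so p-values measure the spread between these libraries only. The title of the series places the study in the control of exosome release by AMPK and SREBPs.

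MUC5AC and MUC5B are the large gel-forming mucins of airway mucus, and MUC1 is a membrane-bound mucin of the epithelial surface. SPDEF is an ETS-family factor that drives goblet cell differentiation in the airway, and FOXA2 is a forkhead factor of endoderm that is known to restrain goblet cell differentiation there. TM4SF proteins cross the membrane 4 times and are related in outline, not in sequence, to true tetraspanins such as CD63. DDC, aromatic L-amino acid decarboxylase, makes dopamine and serotonin from their amino acid precursors and is found in neuroendocrine cells, liver and kidney.

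On GRCh38, MUC5AC (chromosome 11, 1157953 to 1201138, plus strand) and MUC5B (chromosome 11, 1223066 to 1262172, plus strand) are neighbours with 21927 bases between them. TM4SF1 (chromosome 3, 149369022 to 149377781, minus strand) and TM4SF4 (chromosome 3, 149474581 to 149503394, plus strand) lie 96799 bases apart. MUC1 spans 155185824 to 155192915 of chromosome 1 on the minus strand, and SPDEF spans 34537800 to 34556333 of chromosome 6 on the minus strand. FOXA2 spans 22581004 to 22585463 of chromosome 20, TM4SF20 spans 227362038 to 227379306 of chromosome 2, and DDC spans 50458436 to 50565460 of chromosome 7, all on the minus strand. Whether counting used strand was not stated. The antisense genes MUC5B-AS1 and DDC-AS1 overlap MUC5B and DDC and are listed at 0 in all 16 libraries. TM4SF1-AS1 shares 4 bases with TM4SF1 and reached 2.89 TPM at most.

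Promoter windows from RefSeq (GRCh38.p14, 250 bases before to 50 after a start site) matched 6 of the 9 genes. MUC1 and DDC have a pair of windows each, and the upstream one is shown. Shown are those of the 4 matched genes that were chosen by their 48 h values and of MUC1, the gene whose level was higher. Capitals mark the motifs found on either strand among 10 searched.
SPDEF, chr6:34556280-34556579, minus strand: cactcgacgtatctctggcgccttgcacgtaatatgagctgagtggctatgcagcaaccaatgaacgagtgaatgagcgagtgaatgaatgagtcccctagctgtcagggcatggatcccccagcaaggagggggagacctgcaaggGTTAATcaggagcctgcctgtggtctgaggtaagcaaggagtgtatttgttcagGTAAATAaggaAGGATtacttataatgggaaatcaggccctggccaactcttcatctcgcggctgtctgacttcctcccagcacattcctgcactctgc
TM4SF4, chr3:149474447-149474746, plus strand: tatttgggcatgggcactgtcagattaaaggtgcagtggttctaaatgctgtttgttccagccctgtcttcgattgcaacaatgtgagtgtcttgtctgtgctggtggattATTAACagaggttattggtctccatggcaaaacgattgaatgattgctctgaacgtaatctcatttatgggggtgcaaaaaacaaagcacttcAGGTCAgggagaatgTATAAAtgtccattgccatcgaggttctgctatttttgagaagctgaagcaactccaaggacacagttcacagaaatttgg
TM4SF20, chr2:227379257-227379556, minus strand: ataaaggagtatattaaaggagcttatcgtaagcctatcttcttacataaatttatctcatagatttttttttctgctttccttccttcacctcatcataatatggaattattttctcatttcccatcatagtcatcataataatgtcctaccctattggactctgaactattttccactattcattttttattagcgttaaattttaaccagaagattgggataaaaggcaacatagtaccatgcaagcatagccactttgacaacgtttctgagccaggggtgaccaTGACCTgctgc
DDC, chr7:50565356-50565655, minus strand: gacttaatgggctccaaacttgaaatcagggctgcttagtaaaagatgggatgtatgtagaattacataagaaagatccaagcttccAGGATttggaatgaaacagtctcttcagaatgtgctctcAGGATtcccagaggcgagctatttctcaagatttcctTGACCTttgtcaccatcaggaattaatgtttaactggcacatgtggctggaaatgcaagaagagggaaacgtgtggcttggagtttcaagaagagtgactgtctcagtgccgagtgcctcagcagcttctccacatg
MUC1, chr1:155192866-155193165, minus strand: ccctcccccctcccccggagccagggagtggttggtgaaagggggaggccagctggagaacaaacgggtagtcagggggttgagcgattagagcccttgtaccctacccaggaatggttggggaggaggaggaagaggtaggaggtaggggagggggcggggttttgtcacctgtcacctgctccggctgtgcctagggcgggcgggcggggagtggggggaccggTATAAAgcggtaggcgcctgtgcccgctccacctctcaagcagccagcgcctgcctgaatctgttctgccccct

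Motifs searched for forkhead factors were TGTTTAC, the variant TATTTAC, and as a further variant TGTTTGC. For ETS factors they were CCGGAT, and as a shorter core AGGAT. The others were the HNF1 core GTTAAT, the nuclear receptor core AGGTCA, the AP-1 site TGACTCA, the TATA box TATAAA and the sterol response element TCACNCCAC. The SPDEF window holds GTTAAT, the reverse complement of TATTTAC, and AGGAT, the core that SPDEF itself is known to prefer. TM4SF4 holds the HNF1 core GTTAAT, the nuclear receptor core AGGTCA and the TATA box, and TM4SF20 holds AGGTCA past its start site. The DDC window shown holds AGGTCA and a pair of AGGAT matches, and MUC1 holds TATAAA at position -24 from the start. The DDC window not shown, chr7:50561022-50561321, holds the reverse complement of TATTTAC at position -90 and 3 matches to AGGAT. The window of TM4SF1, which is not shown either, holds TGTTTGC at position 6 and matches to AGGAT at positions -172 and -145. Of the 35116 windows in the table, 35.2% held AGGAT, 13.8% AGGTCA, 11.5% TATAAA, 6.88% GTTAAT and 2.67% TATTTAC. The forkhead form TGTTTGC was found in 3.89% of windows, TGTTTAC in 3.42%, CCGGAT in 7.12%, TGACTCA in 4.95% and TCACNCCAC in 1.13%. None of these last 5 forms lies in the 5 windows shown. A match is a run of letters only.

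The libraries held 6.10 to 8.86 aligned gigabases, and 13013 to 14568 genes reached 1 TPM (a transcript level scaled by gene length and to the same sum in each library). All 9 A549 epithelial markers were tested, and 13 or 14 of 17 markers of fibroblasts, immune, endothelial and other lung cells were below 1 TPM in both libraries of each group, with DCN and SFTPA1 at 0 throughout. One transfer RNA gene, TRNC, took up to 286119 TPM in the other libraries and 0 in both 6D7 libraries at 48 h, so TPM of other genes there are raised. The median log2 difference from DMSO of all tested genes at 48 h was 0.29 for 6D7 and -0.21 for 7F8, and with TRNC and TRNY left out of the TPM it was -0.05 and -0.17. Values after median-of-ratios scaling, which centres these medians near 0, are given where they matter. In bulk RNA, fewer cells of a type and less RNA per cell cannot be told apart.

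**Figure D1:**
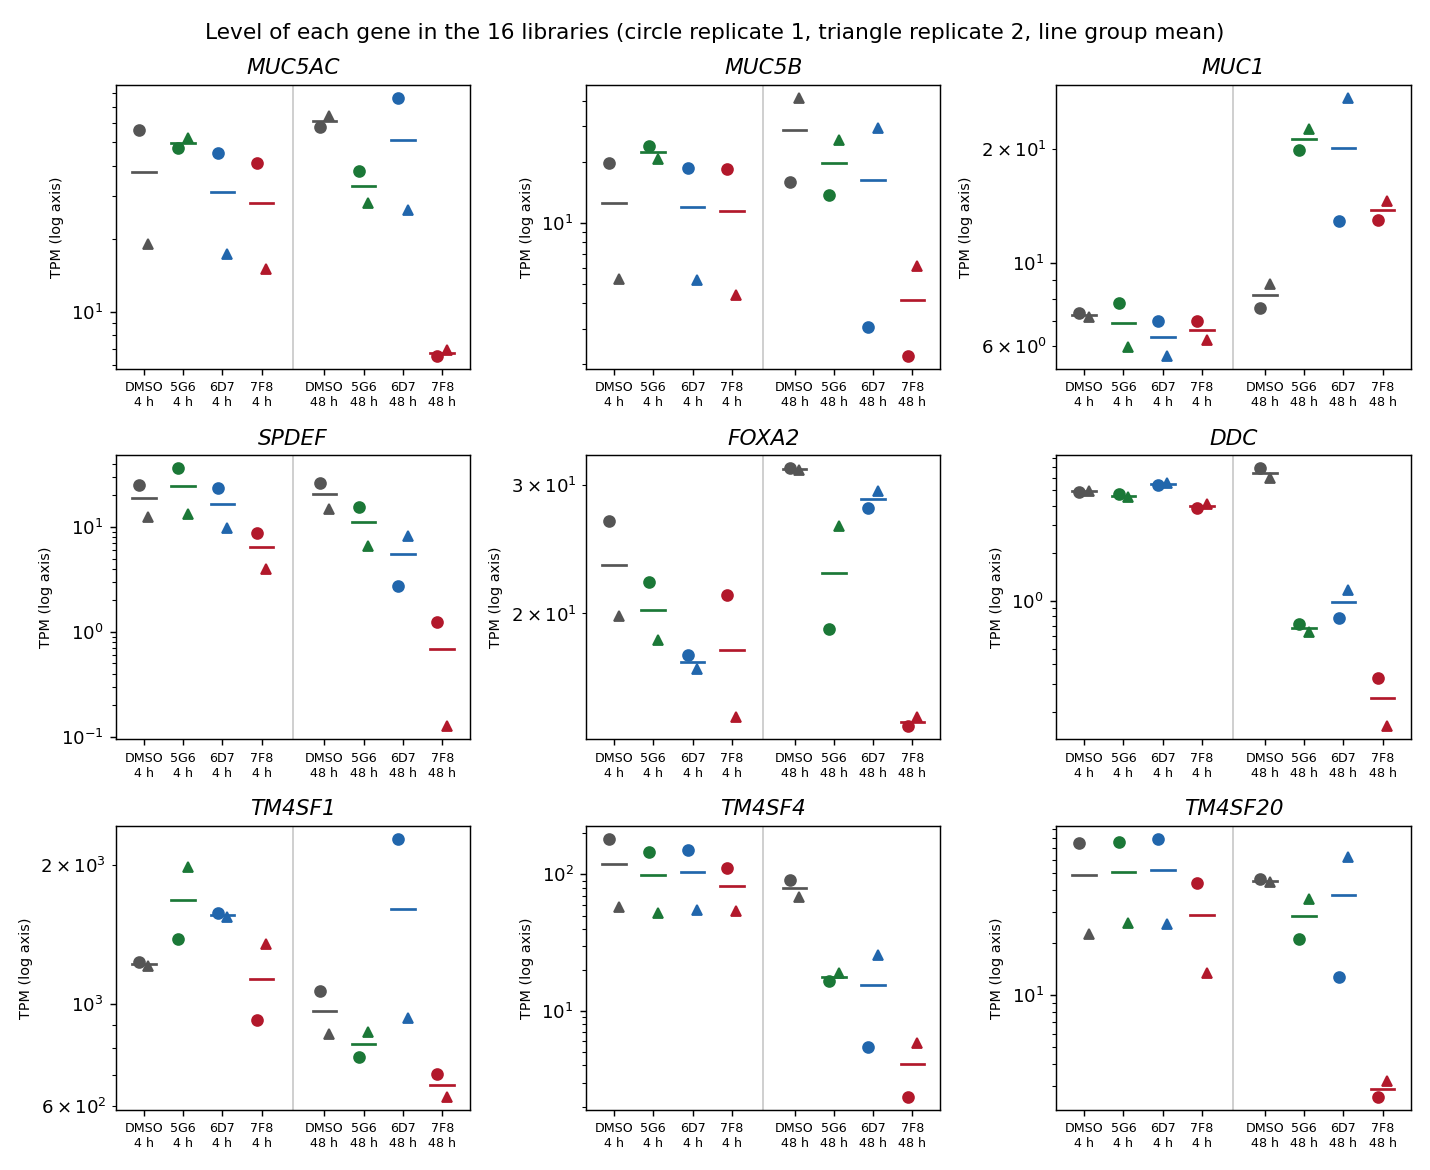
TPM of the 9 genes (vertical log axes, each with its own range) in the 8 groups, 4 h on the left and 48 h on the right of each panel, with circles for replicate 1, triangles for replicate 2 and lines for the mean. With 7F8 at 48 h both libraries of 8 genes lie below both DMSO libraries, where 41.1% of all tested genes do. Of these 8 genes, 5 were chosen by their low 48 h values. Both MUC1 libraries lie above both DMSO libraries, where 15.1% of all tested genes do.

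Levels ranged widely among the 9 genes. Over the 16 libraries, treated and control together, TM4SF1 had the highest mean TPM at 1206, and the others were TM4SF4 at 65.2, MUC5AC at 37.4, TM4SF20 at 36.9, FOXA2 at 21.95, MUC5B at 15.9, SPDEF at 13.0, MUC1 at 11.3 and DDC at 3.41. TM4SF1 was above all the others in every library, with a range of 628 to 2278 TPM. SPDEF had the widest range by ratio, from 0.126 to 36.2 TPM, and FOXA2 the narrowest, from 14.0 to 31.6 TPM. At the lowest value the mean read coverage was 0.325 for SPDEF and 0.276 for DDC, against 53.3 for FOXA2, so the lowest SPDEF and DDC levels rest on few reads. The order of neighbouring genes differed between groups: TM4SF20 had a higher mean than MUC5AC with DMSO at 4 h (48.7 against 37.7 TPM), and MUC5AC a higher one than TM4SF4 with 6D7 at 48 h (51.3 against 15.6 TPM). The deposited FPKM of SPDEF and DDC were 2.28 and 2.61 times what their deposited coverage gives, against 1.00 to 1.10 times for the other 7 genes, so the levels of these 2 genes against other genes depend on the measure.

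Against DMSO at 48 h, MUC1 was called higher with 5G6 and 6D7 and FOXA2 lower with 7F8. These were 3 of 12 tests of the genes not chosen by a value. The MUC1 call with 6D7 was lost after median-of-ratios scaling (limma adjusted p = 0.103), and the limits of all 3 calls are given below with each gene. Among all tested genes the same test (limma across all 16 libraries, Benjamini-Hochberg adjusted p below 0.05) called 1.87% higher and 1.51% lower with 5G6, 10.9% higher and 1.52% lower with 6D7, and 2.08% higher and 6.4% lower with 7F8. After median-of-ratios scaling 473 genes were called higher and 493 lower with 6D7, and 564 higher and 584 lower with 7F8. MUC5B and TM4SF1 did not pass with any compound. Fold changes are differences in log2(TPM + 1) with their standard errors, and n is 2 libraries per group.

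With 7F8, 8 of the 9 genes had both libraries below both DMSO libraries, where 41.1% of all tested genes did. With 5G6 there were 5 of 9, against 27.9% of all genes, and with 6D7 there were 4 of 9, against 10% of all genes. The rule chose 5 of the 9 for such values, so nothing is read from these counts. MUC1 was the 1 gene with both libraries above DMSO, and it was so with each of the 3 compounds, where 19.4% (5G6), 45.2% (6D7) and 15.1% (7F8) of all genes were.

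SPDEF, the goblet cell factor, was 26.2 and 14.9 TPM with DMSO at 48 h. It was 15.6 and 6.56 with 5G6, 2.73 and 8.23 with 6D7, and 1.24 and 0.126 with 7F8. Both 6D7 and both 7F8 libraries were below both DMSO libraries, while the higher 5G6 library overlapped DMSO. The mean was 30.1-fold lower with 7F8 than with DMSO (0.683 ± 0.789 against 20.6 ± 8.04 TPM, SD, n = 2), 3.75-fold lower with 6D7 and 1.86-fold lower with 5G6. On the log2 scale the differences were -3.71, -1.83 and -0.89. The 6D7 value was -1.17 without replicate 1 of 6D7, and the 5G6 value was -1.46 without replicate 1 of 5G6, -0.33 without its replicate 2 and -0.51 without replicate 1 of DMSO.

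FOXA2, the forkhead factor that restrains goblet cells, was 31.6 and 31.5 TPM with DMSO at 48 h and 14.0 and 14.4 TPM with 7F8. The other 6 groups lay between 14.4 and 29.4 TPM, so the 7F8 libraries at 48 h were below DMSO and at the bottom of the range, level with the lower 7F8 library of 4 h. The 7F8 difference was -1.10 ± 0.23 (limma adjusted p = 0.0168), and -0.85 after median-of-ratios scaling (adjusted p = 0.0458). With 5G6 (19.0 and 26.4 TPM) and 6D7 (27.9 and 29.4 TPM) the differences were -0.47 ± 0.23 (adjusted p = 0.304) and -0.13 ± 0.23 (adjusted p = 0.741), although both libraries of each were below DMSO. The 7F8 call was lost when any 1 of the 4 libraries was left out, both DMSO and both 7F8 (adjusted p = 0.0529 to 0.143), and in the fit of 48 h libraries alone (adjusted p = 0.0533).

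MUC5AC, a gel-forming mucin that SPDEF is known to promote in airway epithelium, was 58.1 and 64.2 TPM with DMSO at 48 h. It was 38.1 and 28.1 with 5G6 and 6.57 and 6.92 with 7F8, and all 4 of these libraries were below both DMSO libraries. With 6D7 it was 76.3 and 26.3 TPM, 1 library above and 1 below DMSO. The log2 differences were -0.88, -0.43 and -3.00 for 5G6, 6D7 and 7F8, and the 7F8 mean was 9.07-fold lower. Without replicate 1 of 6D7 the 6D7 difference was -1.19, and without replicate 2 it was 0.32.

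MUC5B, its gel-forming neighbour, was 15.9 and 41.4 TPM with DMSO at 48 h, 13.7 and 25.7 with 5G6, 3.06 and 29.4 with 6D7, and 2.20 and 6.11 with 7F8. Replicate 2 was the higher library in all 4 groups, and only the 7F8 pair did not overlap DMSO. The differences were -0.43 ± 0.96 for 5G6, -1.27 ± 0.96 for 6D7 and -2.49 ± 0.96 for 7F8 (limma adjusted p = 0.873, 0.415 and 0.132). The interval for 7F8 ran from -4.58 to -0.39 (95%, unadjusted). Without replicate 2 of DMSO the 5G6 difference was 0.23, and without replicate 1 of 6D7 the 6D7 difference was 0.19.

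MUC1, the membrane mucin, went the other way. It was 7.59 and 8.80 TPM with DMSO at 48 h, 19.9 and 22.5 with 5G6, 12.9 and 27.3 with 6D7, and 12.9 and 14.6 with 7F8. All 6 treated libraries were above both DMSO libraries. The differences were 1.27 ± 0.29 for 5G6 (limma adjusted p = 0.0376), 1.11 ± 0.29 for 6D7 (adjusted p = 0.0294) and 0.68 ± 0.29 for 7F8 (adjusted p = 0.167). After median-of-ratios scaling the 6D7 difference was 0.79 (adjusted p = 0.103), and it was 0.60 without replicate 2 of 6D7 (adjusted p = 0.135); without either DMSO library in turn the 6D7 call was also lost (adjusted p = 0.188 and 0.0742). The 5G6 call was lost with any 1 of its 4 libraries left out, both DMSO and both 5G6 (adjusted p = 0.117 to 0.258), without the filter on low values (0.0633) and with 48 h libraries alone (0.134).

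TM4SF4 was 91.1 and 68.0 TPM with DMSO at 48 h. It was 16.6 and 18.9 with 5G6, 5.50 and 25.8 with 6D7, and 2.36 and 5.83 with 7F8. All 6 treated libraries were below both DMSO libraries. The means were 4.48-fold, 5.09-fold and 19.4-fold lower, with log2 differences of -2.09, -2.595 and -4.06. Without replicate 1 of 6D7 the 6D7 difference was -1.57.

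TM4SF20 was 46.2 and 44.4 TPM with DMSO at 48 h. It was 20.9 and 35.8 with 5G6, 12.6 and 62.2 with 6D7, and 2.5996 and 3.20 with 7F8. The 5G6 and 7F8 libraries were below DMSO, and the 6D7 libraries lay on either side of it. The log2 differences were -0.71, -0.66 and -3.57, and the 7F8 mean was 15.6-fold lower. The 6D7 difference was -1.76 without replicate 2 of 6D7 and 0.45 without replicate 1, and the 5G6 difference was -0.33 without replicate 1 of 5G6 and -1.08 without replicate 2.

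TM4SF1, an abundant surface protein of many carcinomas, was 1066 and 862 TPM with DMSO at 48 h, 768 and 870 with 5G6, 2278 and 932 with 6D7, and 705 and 628 with 7F8. The 5G6 and 6D7 groups overlapped DMSO and the 7F8 group lay below it. The differences were -0.23 ± 0.34, 0.60 ± 0.34 and -0.53 ± 0.34 (limma adjusted p = 0.797, 0.265 and 0.378). Replicate 1 of 6D7 decided the 6D7 value, which was -0.04 without it and 1.25 without replicate 2 (adjusted p = 0.942 and 0.0124).

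DDC was 6.87 and 5.97 TPM with DMSO at 48 h. It was 0.715 and 0.636 with 5G6, 0.785 and 1.18 with 6D7, and 0.326 and 0.162 with 7F8. All 6 treated libraries were below both DMSO libraries and below all 8 libraries of 4 h. The means were 9.51-fold, 6.54-fold and 26.3-fold lower. Because 1 was added before taking logs, the log2 differences of -2.14, -1.91 and -2.58 understate these ratios.

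**Figure D2:**
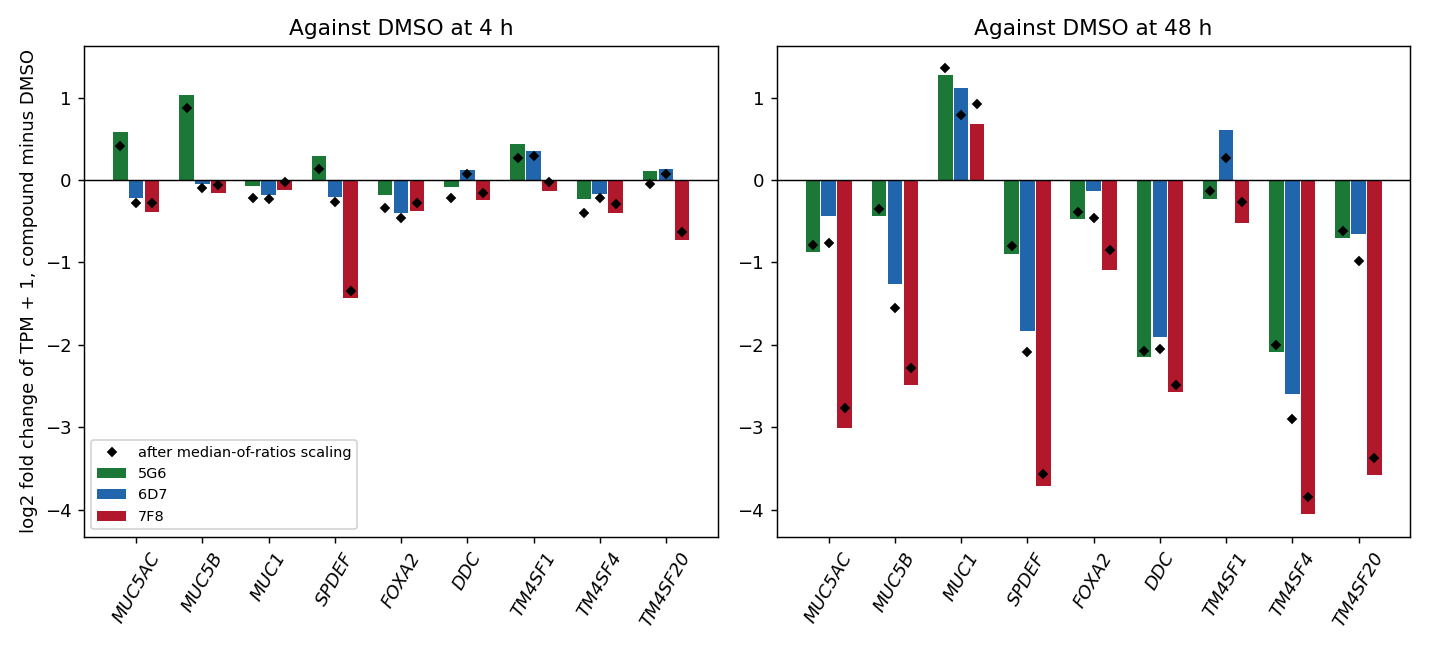
Differences from DMSO of the same hour in log2(TPM + 1) for the 9 genes (bars, 2 libraries per group), with the value after median-of-ratios scaling as a black diamond. At 4 h the values lie between -1.43 and 1.03. At 48 h TM4SF4, SPDEF, TM4SF20 and MUC5AC, all chosen by their low 48 h values, reach -3.00 or lower with 7F8. MUC1 is positive with all 3 compounds at 48 h.

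At 4 h none of the 9 genes passed against DMSO with any compound, in 27 tests on 4 h differences that the rule did not use. In this fit, which has no replicate block, no test reached an unadjusted p under 0.05. Among all tested genes 0.0196% were called with 5G6, 0% with 6D7 and 0% with 7F8. Both libraries were above DMSO for MUC5B and TM4SF1 with 5G6 and for TM4SF1 and DDC with 6D7, where 26.9% and 16.1% of all genes were, and for none with 7F8 (9.98%). Both were below for DDC with 5G6, for MUC1 and FOXA2 with 6D7, and for MUC1, SPDEF and DDC with 7F8, where 5.21%, 6.5% and 23% of all genes were.

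SPDEF had the lowest p at 4 h. It was 25.2 and 12.5 TPM with DMSO, 36.2 and 13.2 with 5G6, 23.3 and 9.88 with 6D7, and 8.82 and 3.94 with 7F8. The 7F8 pair did not overlap DMSO, and within each replicate number the 7F8 library was the lowest of the 4. The 7F8 difference was -1.43 ± 0.66 (limma unadjusted p = 0.0515, adjusted p = 0.989), with an interval of -2.87 to 0.01.

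TM4SF4 at 4 h was 182 and 57.9 TPM with DMSO, 145 and 52.4 with 5G6, 151 and 55.3 with 6D7, and 112 and 53.7 with 7F8. All groups overlapped, and the differences were -0.24, -0.17 and -0.40, each with a standard error of 0.76. TM4SF20 was 74.9 and 22.5 TPM with DMSO, 76.2 and 26.1 with 5G6, 79.0 and 25.7 with 6D7, and 44.3 and 13.3 with 7F8. The 7F8 library was the lowest of its replicate number here too, with a difference of -0.73 ± 0.83 (limma adjusted p = 1).

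DDC at 4 h was tightly measured. It was 4.90 and 4.96 TPM with DMSO, 4.70 and 4.50 with 5G6, 5.38 and 5.54 with 6D7, and 3.88 and 4.11 with 7F8. The 6D7 pair was above and the other treated pairs below DMSO without overlap, but the differences were small (0.12, -0.08 and -0.25, each ± 0.20, limma adjusted p = 1). The lower bound of the interval was -0.69 for 7F8, -0.52 for 5G6 and -0.32 for 6D7.

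The gel-forming mucins at 4 h were over 2-fold apart between replicates in 3 of 4 groups. MUC5AC was 56.3 and 19.0 TPM with DMSO, 47.5 and 52.0 with 5G6, 45.2 and 17.3 with 6D7, and 40.9 and 15.0 with 7F8. MUC5B was 19.8 and 5.25 with DMSO, 23.98 and 20.7 with 5G6, 18.6 and 5.21 with 6D7, and 18.4 and 4.40 with 7F8. In both genes replicate 2 of 5G6 stood with the replicate 1 libraries, and the other replicate 2 libraries were low. The 5G6 differences were 0.58 ± 0.61 for MUC5AC and 1.03 ± 0.96 for MUC5B (limma adjusted p = 1 for both).

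MUC1 at 4 h was 7.34 and 7.16 TPM with DMSO, and the treated libraries lay between 5.66 and 7.83. FOXA2 was 26.8 and 19.8 with DMSO, and the treated libraries lay between 14.4 and 22.1. TM4SF1 was 1232 and 1208 with DMSO, 1383 and 1981 with 5G6, 1574 and 1544 with 6D7, and 923 and 1345 with 7F8. All 4 libraries with 5G6 and 6D7 were above DMSO, with differences of 0.44 ± 0.34 and 0.35 ± 0.34 (limma adjusted p = 1 for both).

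A replicate pattern ran through 5 of the 9 genes at 4 h. Replicate 1 was over 2-fold above replicate 2, on the log2(TPM + 1) scale, in 4 of 4 groups for TM4SF4 and TM4SF20, in 3 for MUC5AC and MUC5B, and in 2 for SPDEF, which was higher in replicate 1 in all 4. Of the 15285 tested genes, 97 (0.635%) were over 2-fold higher in replicate 1 in all 4 groups, which of the 9 genes only TM4SF4 and TM4SF20 were. No share of all genes was taken for fewer groups. DDC differed by at most 0.07 between replicates at 4 h, and the median over all tested genes was 0.24 to 0.35. At 48 h the replicate differences varied by gene and group. SPDEF was again higher in replicate 1 with DMSO (0.78), 5G6 (1.13) and 7F8 (0.99). MUC5B was lower in replicate 1 in all 4 groups, from -0.86 with 5G6 to -2.91 with 6D7. In 6D7 replicate 1 was above replicate 2 for MUC5AC (1.504) and TM4SF1 (1.29). Also in 6D7 it was below replicate 2 for TM4SF20 (-2.21), TM4SF4 (-2.04), SPDEF (-1.31) and MUC1 (-1.03). No label ties these replicate differences to a batch.

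**Figure D3:**
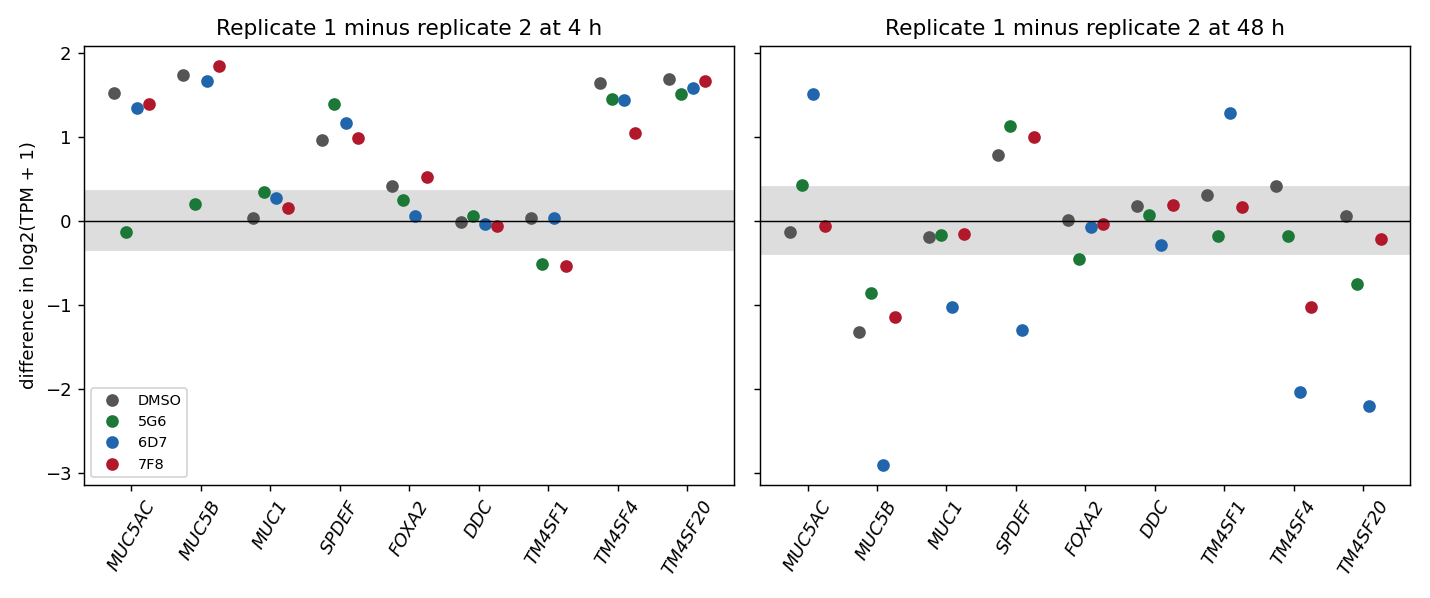
Replicate 1 minus replicate 2 in log2(TPM + 1) for each gene and group at 4 h and 48 h, and in grey the largest of the 4 groups' median absolute differences over all tested genes at that time. At 4 h TM4SF4 and TM4SF20 lie between 1.04 and 1.69 in every group while DDC lies near 0, and at 48 h 6D7 has the widest differences.

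Across times, none of the 4 genes not chosen by a value passed the threshold with DMSO alone. From 4 h to 48 h the differences with DMSO were 0.15 for MUC1, 1.23 for MUC5B, 0.44 for FOXA2 and -0.35 for TM4SF1 (limma adjusted p = 0.999 for each), and 0% of all tested genes were called. The change of effect between 4 h and 48 h was called for none of the 4 genes, with 0%, 0.0393% and 0.00654% of all genes called for 5G6, 6D7 and 7F8. MUC1 had an effect that was 1.34 ± 0.41 higher at 48 h with 5G6 and 1.29 ± 0.41 with 6D7 (limma unadjusted p = 0.0068 and 0.00864, adjusted p = 0.531 and 0.330). FOXA2 with 7F8 had one that was lower, by a difference of -0.72 ± 0.33 (unadjusted p = 0.0478, adjusted p = 0.590). These were the 3 of 16 tests at an unadjusted p under 0.05.

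The compounds were also set against each other at the labelled dose in 39 tests, 27 at 4 h and 12 at 48 h. At 4 h none was called, with 0%, 0.0131% and 0% of all genes called for 5G6 against 6D7, 5G6 against 7F8 and 6D7 against 7F8. SPDEF was 3.87-fold higher by mean TPM with 5G6 than with 7F8 at 4 h, a difference of 1.72 ± 0.66 (limma unadjusted p = 0.0232, adjusted p = 0.375), and both 5G6 libraries were above both 7F8 libraries. At 48 h, 5G6 and 6D7 differed by 0.16 for MUC1 (interval -0.47 to 0.79), by 0.83 for MUC5B (interval -1.27 to 2.93) and by -0.34 for FOXA2 (interval -0.84 to 0.16), with 0.0196% of all genes called. TM4SF1 was lower with 5G6 in both libraries, by a difference of -0.83 (interval -1.58 to -0.09, limma unadjusted p = 0.0313, adjusted p = 0.227). After median-of-ratios scaling the 4 values were 0.56, 1.21, 0.07 and -0.40, so that of FOXA2 turned sign, and none was called.

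FOXA2 and TM4SF1 were called higher with 6D7 than with 7F8 at 48 h, by 0.96 ± 0.23 and 1.13 ± 0.34 (limma adjusted p = 0.0220 and 0.0437), where 16.5% of all genes were called. After median-of-ratios scaling they were 0.39 and 0.54 (adjusted p = 0.559 and 0.637), and neither was called. The FOXA2 call was also lost without any 1 of the 6D7 or 7F8 libraries (adjusted p = 0.0573 to 0.122), and the TM4SF1 value was 0.49 without replicate 1 of 6D7 and 1.77 without replicate 2. That call was lost too without either 7F8 library (adjusted p = 0.148 and 0.131). Between 5G6 and 7F8, where 0.34% of all genes were called, FOXA2 was 0.62 ± 0.23 higher with 5G6 (adjusted p = 0.389) and MUC5B 2.05 ± 0.96 higher (adjusted p = 0.568).

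The other secretory and mucin genes were mostly low. Of 13 further mucins in the tables, MUC13 alone passed the filter on low values. It was 16.5 and 6.98 TPM with DMSO at 48 h and 2.37 and 2.56 with 7F8, a difference of -1.77 (limma adjusted p = 0.187). MUC7 and MUC21 were listed at 0 in all libraries. Of 28 goblet and airway secretory genes, 9 were tested, and SCGB3A1 was at 0 throughout.

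With 7F8 at 48 h, 2 of those 9 genes were called lower and none higher, where 6.4% of all genes were called lower and 2.08% higher. The list's median was -0.32 against -0.21 over all genes. AGR2, an endoplasmic reticulum protein needed for mucin folding, was 166 and 321 TPM with DMSO and 36.2 and 59.6 with 7F8, a difference of -2.29 (limma adjusted p = 0.00542). FOXA3, a forkhead factor of goblet cells, was 1.38 and 2.25 TPM with DMSO and 0 and 0.215 with 7F8 (-1.34, adjusted p = 0.0161). SLPI, a secreted antiprotease of the airway, was 52.9 and 70.6 with DMSO and 261 and 99.4 with 7F8 (1.38, adjusted p = 0.0614). With 5G6 none of the 9 was called, and with 6D7 CREB3L1 rose from 0.532 and 0.278 to 1.49 and 1.25 TPM (0.76, adjusted p = 0.0338), a call lost after median-of-ratios scaling (adjusted p = 0.145). Among all genes 10.9% were called higher with 6D7.

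Mucin-type O-glycosylation enzymes, which build the sugar chains of mucins, were well expressed, with 20 of 24 tested. With 6D7 at 48 h, 6 of the 20 were called higher and none lower, where 10.9% of all genes were called higher, at a median of 0.35 against 0.29 over all genes. After median-of-ratios scaling the list's median was 0.04 and 1 of the 6, ST6GALNAC2, was still called. GCNT3, GALNT18 and GALNT12 were among the calls lost (adjusted p = 0.195, 0.0850 and 0.102). ST6GALNAC2 was 0.374 and 0.421 TPM with DMSO and 2.20 and 1.91 with 6D7 (1.13, limma adjusted p = 0.00827, and 0.0317 after that scaling). GALNT18 rose with 5G6, from 13.4 and 11.7 to 24.8 and 22.3 TPM (0.86, adjusted p = 0.0375), the 1 of 20 called there, where 1.87% of all genes were called higher. GALNT14 fell with 7F8, from 30.7 and 24.1 to 16.9 and 12.4 TPM (-0.87, adjusted p = 0.0418, and 0.179 after scaling). After that scaling GALNT12 was the 1 of the 20 called with 7F8, and it was higher. GALNT2, the most abundant of the list, was 115 and 121 TPM with DMSO and 92.4 and 105 with 7F8 (-0.25, adjusted p = 0.604).

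The 3 other TM4SF genes were all tested, and with 7F8 at 48 h 1 was called, where 6.4% of all genes were called lower. TM4SF18 was 17.8 and 21.4 TPM with DMSO at 48 h and fell to 6.28 and 7.02 with 7F8 (-1.42, limma adjusted p = 0.0191). TM4SF5 was 3.70 and 3.15 TPM with DMSO and listed at 0 in both 7F8 libraries (adjusted p = 0.0907). TM4SF19 was 0 and 1.71 TPM with DMSO and 23.98 and 14.7 with 6D7 (3.59, adjusted p = 0.0537). None of the 3 was called with 5G6 or 6D7.

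Around DDC, 6 of 15 genes of amine synthesis, storage and breakdown were tested. GCH1, the first enzyme of tetrahydrobiopterin synthesis, rose with 6D7 (6.32 and 7.51 to 15.95 and 11.95 TPM, 0.91, limma adjusted p = 0.0352) and with 7F8 (to 23.3 and 16.99 TPM, 1.40, adjusted p = 0.0101). The 6D7 call was lost after median-of-ratios scaling (adjusted p = 0.218). SPR, which acts later in that pathway, fell with 7F8 from 94.0 and 115 to 53.3 and 63.0 TPM (-0.83, adjusted p = 0.0461, and 0.0898 after scaling). None of the 6 was called with 5G6. Among all genes, 1.87% were called higher with 5G6, 10.9% with 6D7 and 2.08% with 7F8, and 6.4% were called lower with 7F8. Of 10 neuroendocrine markers, 5 were tested, and ENO2, a glycolytic enzyme as well as a neuroendocrine marker, was the 1 called. It rose from 38.2 and 64.6 TPM to 145 and 263 with 5G6 (1.95, adjusted p = 0.0125) and to 192 and 293 with 6D7 (2.23, adjusted p = 0.00327). With 7F8 it was 88.4 and 130 TPM (1.09, adjusted p = 0.0624, and 0.0149 after median-of-ratios scaling). UCHL1 (669 to 1131 TPM), CHGB (3.37 to 19.9 TPM) and SYP (2.25 to 6.59 TPM) were found in every library and were not called. NEUROD1 and INSM1 were listed at 0 in every library.

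Of 16 epithelial lineage factors besides the members, 12 were tested. ELF3, an epithelial ETS factor, was 78.2 and 97.1 TPM with DMSO at 48 h and rose to 185 and 176 with 5G6 (1.05, limma adjusted p = 0.0370) and to 188 and 184 with 6D7 (1.08, adjusted p = 0.0151). After median-of-ratios scaling the 6D7 value was 0.75 (adjusted p = 0.122). HNF4A, a nuclear receptor of liver and gut epithelium, fell with 7F8 from 12.8 and 14.3 to 2.28 and 2.63 TPM (-2.07, adjusted p = 0.0499, and 0.0750 after scaling). The list's median was -0.73 with 7F8, -0.13 with 6D7 and -0.29 with 5G6, against -0.21, 0.29 and -0.07 over all genes. Among all genes 1.87% were called higher with 5G6 and 10.9% with 6D7, and 6.4% were called lower with 7F8. No gene of any list was called at 4 h.

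Of the 9 epithelial markers of A549, 3 were called lower with 7F8 at 48 h and none higher, where 6.4% of all genes were called lower. The list's median difference was -1.24 with 7F8, -0.44 with 6D7 and -0.43 with 5G6, against -0.21, 0.29 and -0.07 over all genes. AKR1B10 was 3650 and 3986 TPM with DMSO and 909 and 1126 with 7F8 (-1.91, limma adjusted p = 0.0140), EPCAM was 5.31 and 5.57 with DMSO and 0.254 and 0.548 with 7F8 (-2.21, adjusted p = 0.0129), and KRT18 was 1342 and 1491 with DMSO and 487 and 740 with 7F8 (-1.24, adjusted p = 0.0444, and 0.0620 after median-of-ratios scaling). None of the 9 was called with 5G6 or 6D7, but ALDH1A1 with 6D7 was called after that scaling (-1.92, adjusted p = 0.0386, against -1.58 and 0.0599 before it). The summed TPM of the 17 markers of other cell types was 39.8 to 80.2 with DMSO, 115 to 239 with 5G6, 138 to 259 with 6D7 and 58.3 to 195 with 7F8 at 48 h, most of it from CD68, a lysosomal protein, at 61.0 and 27.2 TPM with DMSO and up to 252 TPM with 6D7. The part of these markers in the results was not tested.

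Over the 16 libraries the levels in log2(TPM + 1) of SPDEF and TM4SF20 had a Pearson r of 0.89, DDC and TM4SF4 0.90, TM4SF4 and TM4SF20 0.84, and SPDEF and TM4SF4 0.84. DDC and MUC1 had -0.82, and the neighbours MUC5AC and MUC5B 0.59. The neighbours TM4SF1 and TM4SF4 had 0.34. SPDEF, TM4SF4, TM4SF20 and DDC were all chosen by their low values at 48 h, and those libraries are among the 16. High r among them is therefore in part fixed by the choice. These points also share libraries, treatments and the TPM scale, and the values are descriptions only. Among 10861 other genes with a mean of at least 5 TPM in some group, the most alike to DDC were PPIH (0.98), MCM2 (0.97), a subunit of the replicative helicase, and XRCC3 (0.96). The most alike to TM4SF4 were SULT2B1 (0.97), INSL4 (0.96) and PROCR (0.96), to SPDEF BAIAP2L2 (0.91), INSL4 (0.91) and HHEX (0.90), and to TM4SF20 DOK4 (0.96). The most alike to MUC1 was SLC16A3 (0.97), a lactate transporter, to MUC5B MYRF (0.94), to MUC5AC PVR (0.92), to FOXA2 IRX3 (0.92) and to TM4SF1 YRDC (0.92).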

How the data were processed

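RNA-seq of 16 A549 libraries (8 groups of 2) was deposited as 1 gene abundance table per library, with TPM, FPKM and mean coverage made by the authors. Per the submitters' processing notes, STAR 2.6.1a, featureCounts 1.6.3, StringTie 2.0 and GRCh38 were used, with roles not given; the columns are those of StringTie. The deposited coverage is a mean per gene, per the file headers, and FPKM values of the authors were used as an alternative. No read counts were used, and aligned gigabases were taken from deposited coverage and FPKM. TPM of rows with 1 gene name were summed and log2(TPM + 1) was tested with limma 3.58.1 in R 4.3.3 (trend, 8 group means, 16 libraries, 8 residual degrees of freedom, a gene entering when 2 or more libraries reached 1 TPM), with Benjamini-Hochberg adjustment within each of 16 comparisons over all 15285 genes.

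The fit was tested on simulated data for 5G6 against DMSO at 48 h, with libraries drawn independently, unlike the same-numbered libraries here. It called 24 of 100 genes changed 2-fold, 83 of 100 changed 4-fold and 4 unchanged genes. A gene not called may therefore still have changed 2-fold. Alternatives were another pseudocount (0.1), no filter, FPKM, median-of-ratios scaling, TPM without TRNC and TRNY, no variance trend, 1 time point alone, a replicate block, each library left out and coverage. Genes named are all 9 members, from each list the 4 most abundant and up to 3 called with the smallest p per comparison, and the 3 genes most alike by r, of which some are given; those named as listed at 0 in all libraries were picked after their values were seen. Members and lists were chosen with earlier results of these data known.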

Additional observations from a re-analysis of the deposited data

Results flagged for a closer look

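In MUC1, both libraries with a compound were below both DMSO libraries at 4 h and above both at 48 h. The log2 differences were -0.18 and 1.11 with 6D7, and -0.12 and 0.68 with 7F8. At 4 h the median difference over all tested genes was 0.035 with 6D7 and -0.10 with 7F8. Both libraries were below DMSO for 6.5% and 23% of all genes. After median-of-ratios scaling the MUC1 differences at 4 h were -0.23 with 6D7 and -0.022 with 7F8, so the 7F8 value was near 0. The difference between the times was tested and not called (limma adjusted p = 0.330 for 6D7 and 0.665 for 7F8).

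In DDC at 4 h, both 6D7 libraries were above both DMSO libraries (log2 difference 0.12), while both 5G6 libraries (-0.081) and both 7F8 libraries (-0.25) were below them. Of all tested genes 16.1% were above DMSO with 6D7, and 5.21% and 23% were below it with 5G6 and 7F8. After median-of-ratios scaling the DDC differences were 0.077 with 6D7, -0.22 with 5G6 and -0.16 with 7F8. Between compounds the 6D7 against 7F8 difference at 4 h was 0.37 and the 5G6 against 6D7 difference -0.21, and neither was called (limma adjusted p = 0.870 and 1). At 48 h both 6D7 libraries were below DMSO (-1.91), and as DDC was chosen by its 48 h values the difference between 4 h and 48 h was not tested. Groups of 2 libraries allow no check for a library that stands apart.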

How the results depend on the processing

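The 2 libraries per group limit every value here, and depth limits SPDEF with 7F8 and DDC with each compound at 48 h. Of the tests against DMSO at 48 h on the genes not chosen by a value, 3 were called, 0 with 48 h libraries alone, and 0 to 3 with 1 library left out. The MUC1 call with 6D7 was lost after median-of-ratios scaling (limma adjusted p = 0.103), and that with 5G6 was lost without the filter on low values. Between compounds at 48 h, 2 were called, 1 without the filter on low values and 1 without the variance trend. None (0) was called there with FPKM, median-of-ratios scaling, TPM without TRNC and TRNY, coverage per aligned gigabase (chosen after seeing the data) or 48 h libraries alone, and 0 to 2 with 1 library left out. The counts of 0 at 4 h, between times and with DMSO over time were the same in every alternative run. Why calls were lost was not tested. The fit of 1 time point has fewer libraries. TM4SF20 with 5G6 at 4 h turned from 0.11 to -0.013 with FPKM and coverage and to -0.047 with median-of-ratios scaling.

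With 1 library left out, differences at 4 h changed sign as follows. With 5G6 the ranges were -0.24 to 0.10 for MUC1, -0.18 to 1.34 for MUC5AC, -0.41 to 0.99 for SPDEF, -0.39 to 0.022 for FOXA2, -1.05 to 0.58 for TM4SF4 and -0.73 to 0.96 for TM4SF20. With 6D7 they were -0.98 to 0.54 for MUC5AC, -0.91 to 0.82 for MUC5B, -0.79 to 0.37 for SPDEF, -0.98 to 0.65 for TM4SF4 and -0.72 to 0.98 for TM4SF20. With 7F8 they were -1.14 to 0.37 for MUC5AC, -1.08 to 0.77 for MUC5B, -0.40 to 0.14 for TM4SF1, -1.22 to 0.42 for TM4SF4 and -1.58 to 0.11 for TM4SF20. At 48 h they were -1.10 to 0.23 for MUC5B with 5G6, -2.72 to 0.19 for MUC5B, -0.040 to 1.25 for TM4SF1, -1.19 to 0.32 for MUC5AC and -1.76 to 0.45 for TM4SF20 with 6D7.

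Groups share replicate numbers, but no label says what a number marks. With the replicate number as a block, all counts of called members were the same (3 and 2 at 48 h, 0 at 4 h), while genes called over all went from 517 to 1739 for 5G6, from 1899 to 3806 for 6D7 and from 1297 to 2944 for 7F8 at 48 h, and from 3 to 7 for 5G6 at 4 h. Deviations of same-numbered libraries had an r across genes of 0.38 to 0.63 between groups at 4 h, 0.39 to 0.58 at 48 h and 0.06 to 0.36 across times. With the block the standard error of SPDEF differences from DMSO at 4 h was 0.50, against 0.66 without it. Unadjusted p-values of members in the block fit are not given here. The counts for 5G6, 6D7 and 7F8 at 48 h were 8, 407 and 176 with 48 h libraries alone, and for 6D7 they were 966 with median-of-ratios scaling, 1013 with FPKM, 951 without TRNC and TRNY and 1052 with coverage. Without the filter 22, 2 and 7 genes were called at 4 h.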
